A study of Mus musculus with 22 samples.

Results

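The genes described here are Angptl7, Arhgap36, Ccdc141, Nrcam, Cryba2, Rerg and Dapl1, 7 of the 57010 gene IDs in the deposited table. They were chosen by their log2 differences between Het and WT islets, large on at least one background and unequal between the 2, so their differences between Het and WT are given as descriptions, without a test. Each symbol matched 1 table entry, and all 7 passed the filter on low values, which left 16756 genes. Islets are the clusters of hormone-secreting cells of the pancreas, and they were isolated from 22 male mice of 5.5 weeks, 1 animal per library. The WT mice carried no change in MAFA, and the Het mice were heterozygous for the S64F change. The groups were 5 WT and 6 Het mice on the background labelled C57, and 5 WT and 6 Het mice on the background labelled Mixed, whose strains the labels do not give. All values are TPM, an abundance per transcript length that is scaled to the same total in every library.

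MAFA is a transcription factor of mature beta cells, where it drives insulin and genes of glucose-stimulated secretion by binding DNA elements called MAREs. Its S64F change disturbs the phosphorylation that marks the protein for breakdown, so the protein persists longer, and families that carry it show insulin-producing tumours or diabetes. The 7 genes belong to no common pathway. Angptl7 encodes a secreted angiopoietin-like protein, and Nrcam encodes a cell adhesion molecule of the L1 family that is known from neurons. Arhgap36 encodes a protein that inhibits protein kinase A and activates hedgehog signalling, and Ccdc141 encodes a coiled-coil protein that binds DISC1 in migrating neurons. Cryba2 encodes a beta-crystallin, a family best known from the eye lens. Rerg encodes a small GTPase related to Ras, and Dapl1 encodes a small death-associated protein-like factor known from epithelia.

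Mafa itself was lower in Het islets, at 117 TPM ± 23.2 (SD, n = 6) against 441 ± 87.6 (n = 5) in C57 and 152 ± 37.1 (n = 6) against 598 ± 143 (n = 5) in Mixed. Libraries of one group resembled each other, with a mean Pearson correlation to the other animals of the group between 0.958 and 0.987 across genes. The defining beta-cell markers Ins1, Ins2 and Mafa were above 0 in every library. The summed alpha-cell markers (6 of 6 above 0 in every library) ranged from 19100 to 57520 TPM in C57 WT, from 71480 to 117500 in C57 Het, from 15860 to 27620 in Mixed WT and from 65500 to 107400 in Mixed Het. The alpha sums of WT and Het did not overlap in either background. A fit with this sum as a covariate therefore cannot cleanly separate it from genotype. In bulk islet RNA, more cells of a type and more RNA per cell cannot be told apart.

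The 7 genes fell into 2 sets by the background in which Het exceeded WT by more. Angptl7, Arhgap36, Ccdc141 and Nrcam had the larger log2 difference in C57, where they held ranks 2, 3, 4 and 5 among all genes tested. Cryba2, Rerg and Dapl1 had the larger one in Mixed, at ranks 5, 9 and 21. In C57, 5 of the 7 genes had no overlap between Het and WT animals, where 15.9% of all genes tested were higher in Het without overlap. In Mixed it held for 6 of 7 genes, against 17.9% of all genes. The choice of the genes used these contrasts, so nothing is read from these shares. Meltf, the gene with the largest increase in C57, is no member. It differed by 4.12 (SE 0.16) in C57 and 4.08 (SE 0.16) in Mixed on the log2(TPM + 1) scale, nearly the same amount in each.

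**Figure D1:**
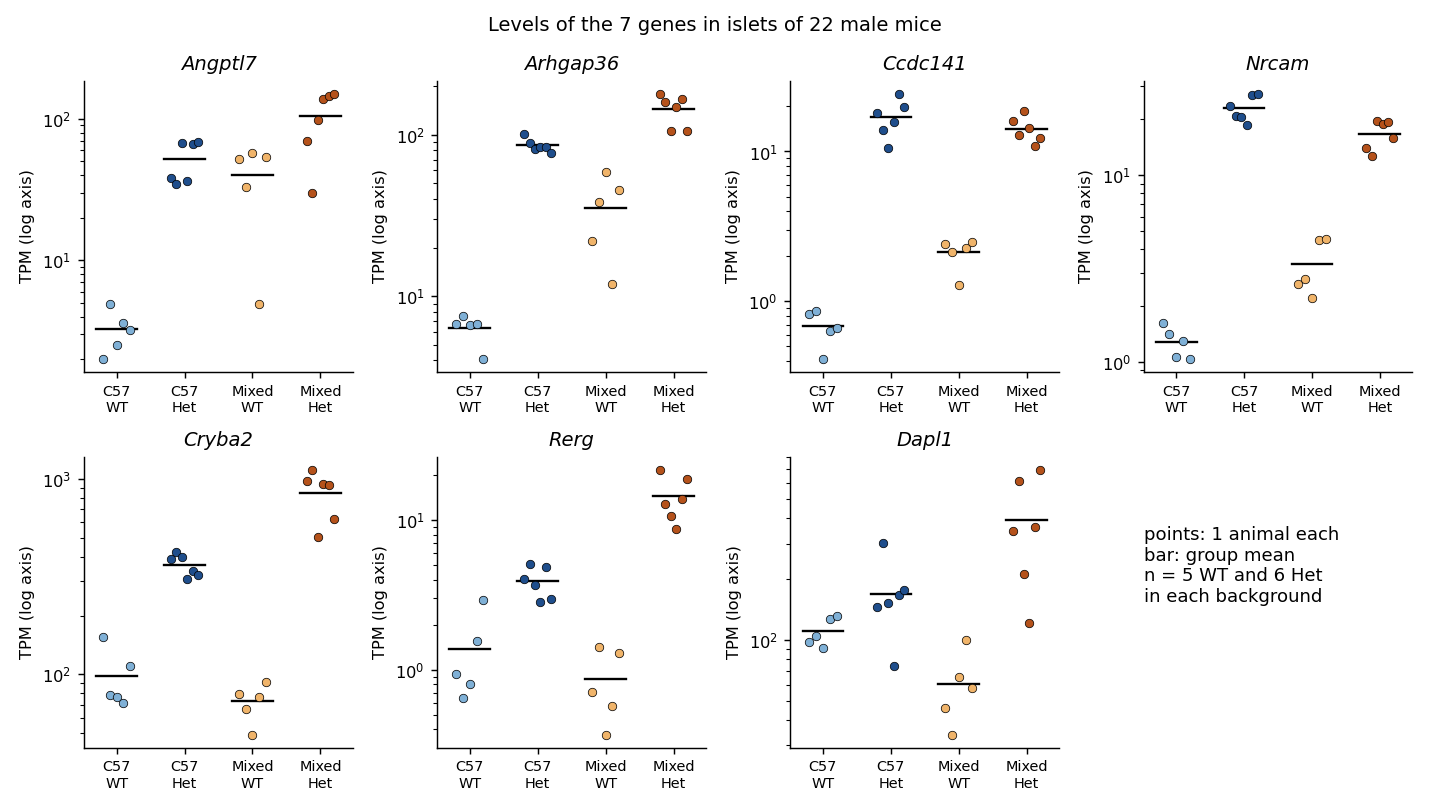
TPM on log axes for each of the 7 genes in the 4 groups, with 1 point per animal and a bar at the group mean. In the upper row the Mixed WT animals lie above the C57 WT animals, for Angptl7 by the narrowest margin (4.92 against 4.90 TPM), and in the lower row the WT groups overlap while Mixed Het has the highest mean.

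Angptl7 (ENSMUSG00000028989, chromosome 4) was at 2.01, 4.90, 2.51, 3.63 and 3.24 TPM in the C57 WT animals. In C57 Het it ranged from 34.8 to 68.1 TPM with a median of 52.2, so every Het animal was at least 7.09-fold above the highest WT animal. In Mixed WT it was at 52.1, 33.0, 57.1, 4.92 and 53.4 TPM, and in Mixed Het it ranged from 29.9 to 149 TPM with a median of 118. The groups overlapped: Mixed WT lay across C57 Het, and 5 of 6 Mixed Het animals exceeded every Mixed WT animal. The Het mean was 15.9 times the WT mean in C57 and 2.62 times in Mixed, and the log2(TPM + 1) differences were 3.60 (SE 0.48) and 1.54 (SE 0.48). Without Mixed WT replicate 4, the animal at 4.92 TPM, the Mixed difference was 0.93.

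Arhgap36 (ENSMUSG00000036198, chromosome X) had the smallest relative spread of the 7 genes in C57 Het (coefficient of variation 9.99%). Its C57 WT levels were 6.74, 7.57, 6.64, 6.74 and 4.10 TPM, and C57 Het ranged from 76.4 to 101 TPM with a median of 83.7. Mixed WT animals were at 21.9, 38.2, 58.3, 11.9 and 45.3 TPM, and Mixed Het ranged from 105 to 178 TPM with a median of 154. The order of the group means was Mixed Het, C57 Het, Mixed WT and C57 WT, and no neighbours in that order overlapped. The log2(TPM + 1) difference between Het and WT was 3.58 (SE 0.27) in C57 and 2.16 (SE 0.27) in Mixed. With the summed alpha-cell markers as a covariate the Mixed difference was 1.42 (SE 0.59).

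The lowest Mixed WT value of Arhgap36 and the lowest of Angptl7 came from the same animal, Mixed WT replicate 4. At 11.9 and 4.92 TPM it lay near the C57 WT animals for both genes. Its mean correlation with the other Mixed WT libraries was 0.965, the lowest of a group that reached 0.976, and its Mafa level of 440 TPM was the lowest of the Mixed WT animals. In that animal Ccdc141 was at 2.28 TPM and Nrcam at 4.51 TPM, inside or at the upper end of the Mixed WT range. Its Dapl1 level of 100 TPM was the highest of the Mixed WT animals and lay inside the C57 WT range of 91.5 to 132 TPM. Cryba2 and Rerg were inside the Mixed WT range, at 76.6 and 0.575 TPM.

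**Figure D2:**
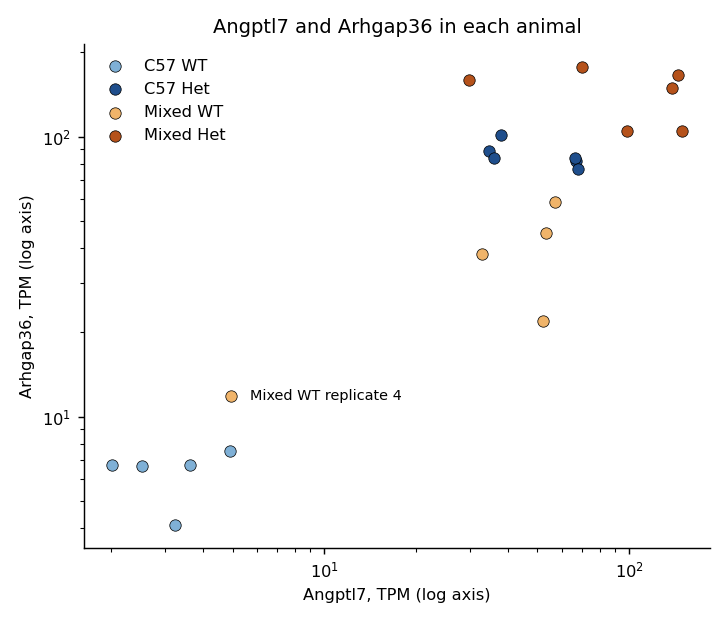
Angptl7 (x axis) against Arhgap36 (y axis), TPM on log axes, with 1 point per animal coloured by group. The C57 WT animals form the lower left corner and Mixed WT replicate 4, at 4.92 and 11.9 TPM, lies beside them, while the other 4 Mixed WT animals lie at 33.0 TPM of Angptl7 or more.

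Ccdc141 (ENSMUSG00000044033, chromosome 2) was nearly silent in C57 WT, at 0.825, 0.863, 0.414, 0.632 and 0.667 TPM. In C57 Het it ranged from 10.5 to 24.1 TPM with a median of 16.9. Mixed WT animals were at 2.42, 2.13, 1.29, 2.28 and 2.50 TPM, all above the C57 WT animals, and Mixed Het ranged from 10.9 to 18.7 TPM with a median of 13.6. The Het groups of the 2 backgrounds overlapped. The log2(TPM + 1) difference was 3.38 (SE 0.17) in C57 and 2.28 (SE 0.17) in Mixed. At such low WT levels the size depends on the pseudocount: with 0.1 in place of 1 TPM the C57 difference was 4.44.

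Nrcam (ENSMUSG00000020598, chromosome 12) followed the same order of groups. It was at 1.62, 1.40, 1.06, 1.29 and 1.04 TPM in C57 WT and from 18.5 to 27.1 TPM (median 22.1) in C57 Het. Mixed WT animals were at 2.61, 2.77, 2.20, 4.51 and 4.53 TPM, and Mixed Het ranged from 12.7 to 19.5 TPM with a median of 17.4. Het and WT did not overlap in either background, and the 2 Het groups overlapped, with 3 of 6 Mixed Het animals below every C57 Het animal. The log2(TPM + 1) difference was 3.38 (SE 0.15) in C57 and 2.05 (SE 0.15) in Mixed. With a pseudocount of 0.1 the C57 difference was 4.06.

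Cryba2 (ENSMUSG00000006546, chromosome 1) was the most abundant of the 7 genes in Het islets. C57 WT animals were at 155, 78.4, 76.9, 71.7 and 110 TPM, and C57 Het ranged from 307 to 422 TPM with a median of 364. Mixed WT animals were at 79.5, 66.1, 49.2, 76.6 and 91.7 TPM, and Mixed Het ranged from 504 to 1112 TPM with a median of 938. The WT groups overlapped, and all 6 Mixed Het animals exceeded every C57 Het animal. By group mean it held rank 1163 of the 16756 genes in Mixed WT and rank 58 in Mixed Het. The log2(TPM + 1) difference was 1.93 (SE 0.21) in C57 and 3.51 (SE 0.21) in Mixed. With the summed mesenchymal markers as a covariate the Mixed difference was 3.13 (SE 0.29).

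Rerg (ENSMUSG00000030222, chromosome 6) had low levels in both WT groups and in C57 Het. C57 WT animals were at 0.936, 0.645, 0.804, 1.56 and 2.94 TPM, and C57 Het ranged from 2.86 to 5.08 TPM with a median of 3.87. One C57 WT animal, replicate 5, lay inside the C57 Het range. This library had the lowest mean correlation with its group of all 22 (0.958) and also held the lowest C57 WT level of Arhgap36. Mixed WT animals were at 0.713, 1.42, 0.370, 0.575 and 1.29 TPM, and Mixed Het ranged from 8.68 to 21.7 TPM with a median of 13.3, above every other animal of the study. The log2(TPM + 1) difference was 1.11 (SE 0.23) in C57 and 3.01 (SE 0.23) in Mixed, and with a pseudocount of 0.1 the Mixed difference was 3.96. The summed mesenchymal markers (7 of 7 above 0 in every library) ranged from 31.4 to 62.8 TPM in Mixed WT and from 57.9 to 367 TPM in Mixed Het, and from 34.4 to 89.9 and 39.8 to 64.9 TPM in C57 WT and Het. With that sum as a covariate the Mixed difference of Rerg was 2.42 (SE 0.29).

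Dapl1 (ENSMUSG00000026989, chromosome 2) varied most between animals in the Het groups. C57 WT animals were at 97.3, 104, 91.5, 127 and 132 TPM, and C57 Het ranged from 74.2 to 301 TPM with a median of 160. In C57, 5 of 6 Het animals exceeded every WT animal and 1 lay below all of them. Mixed WT animals were at 45.97, 34.0, 65.7, 100 and 57.5 TPM, and Mixed Het ranged from 121 to 694 TPM with a median of 355. The coefficient of variation was 43.6% in C57 Het and 56.96% in Mixed Het, the highest of the 7 genes in those groups. The log2(TPM + 1) difference was 0.52 (SE 0.37) in C57 and 2.53 (SE 0.37) in Mixed. The Mixed difference was 3.18 with the summed alpha-cell markers as a covariate and 2.05 with the summed mesenchymal markers.

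The order of the backgrounds depended on the scale for part of the first set. In TPM, the difference between the Het and WT means of Arhgap36 was 79.6 (SE 3.56) in C57 and 108 (SE 15.2) in Mixed, and that of Angptl7 was 48.5 (SE 6.97) and 64.8 (SE 21.9). For these genes the increment was thus larger in Mixed while the log2 difference was larger in C57. Ccdc141 kept the larger increment in C57, at 16.3 TPM (SE 1.94) against 12.1 (SE 1.17), as did Nrcam at 21.6 (SE 1.47) against 13.4 (SE 1.30). Cryba2 gained 265 TPM (SE 24.5) in C57 and 776 (SE 95.3) in Mixed, Rerg 2.55 (SE 0.56) and 13.5 (SE 2.02), and Dapl1 59.2 (SE 31.3) and 331 (SE 91.9), so these genes kept their order on either scale. None of these differences between backgrounds was tested, because the genes were picked for them.

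In WT islets, Angptl7, Arhgap36, Ccdc141 and Nrcam had higher levels in Mixed than in C57. The WT animals of this comparison also entered the differences by which the genes were chosen, and a low C57 WT level makes a C57 increase large, so it is given as a description, without a test. Angptl7 was 12.3 times higher by group means (log2 difference 2.95, SE 0.50), with 5 of 5 Mixed WT animals above every C57 WT animal, and without Mixed WT replicate 4 the log2 difference was 3.56. Arhgap36 was 5.53 times higher (2.13, SE 0.28), Ccdc141 3.12 times (0.89, SE 0.17) and Nrcam 2.59 times (0.89, SE 0.16), again with no overlap of the groups. For comparison, 2.91% of all genes tested were higher in Mixed WT without overlap. By limma with adjusted p under 0.05, 6.3% of all genes were higher and 4.99% lower in Mixed WT. Nothing is read from these shares for the members.

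The other 3 genes were lower in Mixed WT by group means, with overlap of the groups. Dapl1 differed by -0.93 (SE 0.39), with 4 of 5 Mixed WT animals below every C57 WT animal. Cryba2 differed by -0.40 (SE 0.22) and Rerg by -0.30 (SE 0.24). In Het islets, given as a description, Mixed exceeded C57 by 1.61 (SE 0.22) for Rerg, 1.18 (SE 0.20) for Cryba2, 1.09 (SE 0.35) for Dapl1, 0.89 (SE 0.45) for Angptl7 and 0.71 (SE 0.25) for Arhgap36. Ccdc141 differed by -0.22 (SE 0.16) and Nrcam by -0.43 (SE 0.14). All 6 Mixed Het animals exceeded every C57 Het animal for 3 of the 7 genes (Cryba2, Rerg and Arhgap36), against 6.56% of all genes. By group means the Angptl7 and Arhgap36 levels were thus higher in Mixed in either genotype, whereas the Ccdc141 and Nrcam means were higher in Mixed in WT and lower in Het.

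**Figure D3:**
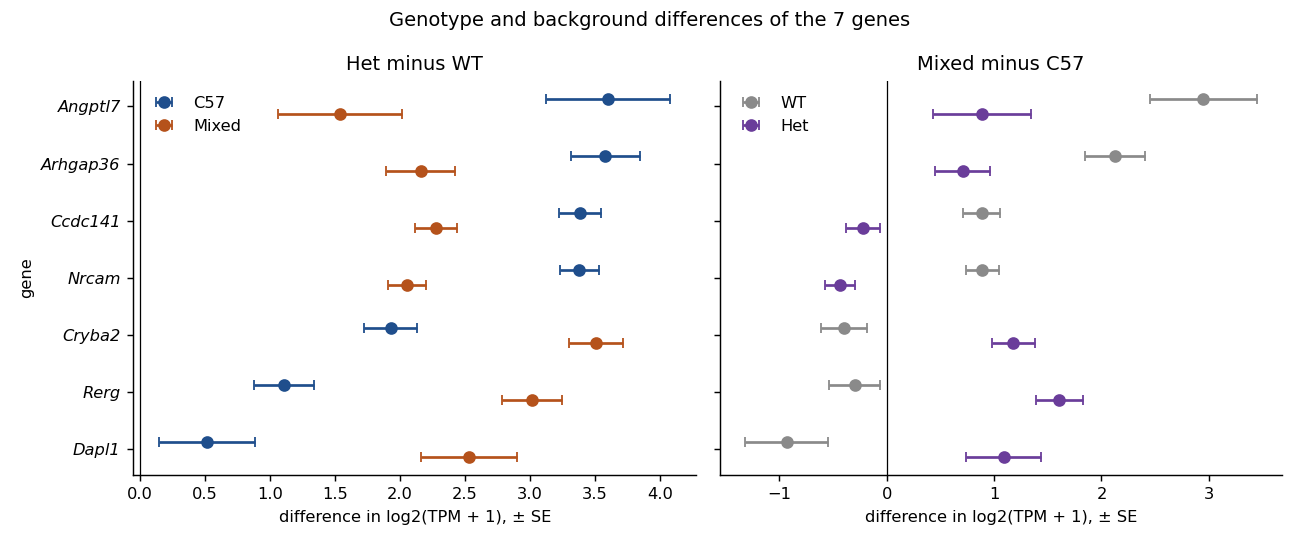
Differences in log2(TPM + 1) with standard errors from limma for the 7 genes: Het minus WT in each background (left) and Mixed minus C57 in each genotype (right). The 4 upper genes have the larger Het minus WT difference in C57 and a Mixed minus C57 difference in WT from 0.89 to 2.95, and the 3 lower genes have the larger difference in Mixed and WT values at or below -0.30.

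Promoter sequence was taken from RefSeq (GRCm38.p6), where 6 of the 7 genes had an entry, with 2 start sites for Arhgap36. Rerg was not among them. The window ran from 250 bases before to 50 bases after each start site, and 7 motifs were searched on both strands after the sequences had been seen. They were the full palindromic MAREs of the TRE and the CRE type, the 11-base core of the TRE type, the single arm TGCTGAC, the AP-1 type element TGACTCA that lies within that core, a spaced pair of TGC and GCA with 7 bases of any kind between them, and the TATA element TATAAA. The promoters of Cryba2 and Dapl1, from the set with the larger difference in Mixed, are shown because they held matches. Those of Ccdc141 and Nrcam, from the other set, are shown for comparison. Each is the 250 bases before the start site, read 5′ to 3′ on the strand of the gene, with motif matches that lie wholly in it in capitals. They lie at chr1:74893144-74893393 on the minus strand, chr2:59484403-59484652 on the plus strand, chr2:77170636-77170885 on the minus strand and chr12:44328635-44328884 on the plus strand.
Cryba2: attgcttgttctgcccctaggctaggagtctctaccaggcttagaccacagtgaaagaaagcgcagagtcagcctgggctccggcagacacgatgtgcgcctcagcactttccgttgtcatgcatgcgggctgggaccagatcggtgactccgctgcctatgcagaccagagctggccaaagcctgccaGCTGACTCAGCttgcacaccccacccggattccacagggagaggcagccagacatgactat
Dapl1: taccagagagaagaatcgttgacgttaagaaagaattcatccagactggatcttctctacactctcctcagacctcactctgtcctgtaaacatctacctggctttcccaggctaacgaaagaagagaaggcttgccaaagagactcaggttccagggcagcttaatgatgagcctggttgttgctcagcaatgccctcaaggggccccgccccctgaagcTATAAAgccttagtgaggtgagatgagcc
Ccdc141: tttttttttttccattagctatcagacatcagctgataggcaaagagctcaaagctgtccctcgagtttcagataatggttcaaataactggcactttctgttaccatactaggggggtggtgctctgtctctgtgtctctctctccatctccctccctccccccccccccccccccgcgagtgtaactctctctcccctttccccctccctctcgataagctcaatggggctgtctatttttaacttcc
Nrcam: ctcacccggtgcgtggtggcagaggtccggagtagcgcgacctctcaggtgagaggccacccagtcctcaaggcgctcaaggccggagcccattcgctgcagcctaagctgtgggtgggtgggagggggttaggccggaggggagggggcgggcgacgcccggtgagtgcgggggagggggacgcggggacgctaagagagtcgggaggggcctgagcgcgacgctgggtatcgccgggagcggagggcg

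Cryba2 held the 11-base MARE core, shown in capitals, from 61 to 51 bases before its start site, and the TGACTCA element inside it. Of 32851 promoters in the table, 15 (0.0457%) held that core on either strand, and 1 (0.00304%) held the full TRE-type element. Dapl1 held TATAAA from 29 to 24 bases before its start site, an element found in 13.6% of promoters, and Cryba2 held one across its start site. The arm TGCTGAC occurred in 4.67% of promoters, TGACTCA in 5.2%, the spaced pair in 7.67% and the full CRE-type element in 0%. No window of Angptl7, Arhgap36, Ccdc141 or Nrcam held any of the 7 motifs, which says only that these letters are absent there. The GC content of the 250 bases was 72.4% for Nrcam, 58.8% for Cryba2, 50.4% for Ccdc141 and 50.0% for Dapl1, and the median of all promoters was 52.4%.

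Genes beside the members differed in how they moved. Fev, a transcription factor gene of serotonin-producing neurons and endocrine precursors, neighbours Cryba2 on the same strand. Its group means were 13.3 TPM ± 5.1 (SD, n = 5) and 22.1 ± 4.3 (n = 6) in C57 WT and Het, and 7.83 ± 2 (n = 5) and 24.1 ± 7.26 (n = 6) in Mixed WT and Het. Fev rose by 0.73 (SE 0.21, limma adjusted p = 0.00806) in C57 and by 1.49 (SE 0.21, adjusted p = 6.71e-06) in Mixed, and the difference between the backgrounds did not pass (0.76, SE 0.29, adjusted p = 0.107). Mtor, the growth-control kinase gene that overlaps Angptl7 on the other strand, was at 13.2 ± 2.26 and 18.7 ± 1.13 TPM in C57 WT and Het and at 14.8 ± 1.6 and 16.9 ± 1.64 TPM in Mixed. Its differences of 0.49 (adjusted p = 6.81e-04) in C57 and 0.19 (adjusted p = 0.126) in Mixed were smaller than those of Angptl7; whether the counting used strand is not given in the sources used here. In C57 and Mixed, Sestd1, beside Ccdc141, rose by 0.72 (adjusted p = 8.35e-05) and 0.40 (adjusted p = 0.00792), and Pnpla8, beside Nrcam, by 0.57 (adjusted p = 6.15e-05) and 0.31 (adjusted p = 0.00699). Ttn, the muscle titin gene on the other side of Ccdc141, had group means of at most 0.00564 TPM.

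The gene whose levels most resembled those of Ccdc141 over the 22 animals was Nrcam, and the reverse held too (Pearson r = 0.98 across animals of the 4 groups). These values describe mainly the shared group pattern: for deviations from the group means the r of this pair was 0.52. Mat1a, the methionine adenosyltransferase gene, was among the 3 nearest genes to both (r = 0.97 and 0.96). Slc38a5, an amino acid transporter, was nearest to Cryba2 (r = 0.97; 0.71 for deviations), with group means of 21.4, 146, 19.1 and 230 TPM in WT and Het of C57 and then WT and Het of Mixed. Rerg was most like Prdx4, a peroxidase of the endoplasmic reticulum (r = 0.98; 0.79 for deviations). Angptl7 was most like Pals2 (r = 0.94), and Arhgap36 was most like the copper transporter gene Slc31a1 (r = 0.95). The small heat shock protein gene Hspb8 was among the 3 nearest to both Angptl7 (r = 0.91; 0.81 for deviations) and Arhgap36 (r = 0.94; 0.52 for deviations). Its group means were 13.5, 79.0, 32.2 and 107 TPM in the same order of groups. Dapl1 had the loosest match, with the guanylate cyclase receptor gene Gucy2c (r = 0.87).

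Within the Het groups, animals with more of one gene did not consistently have more of another. Over 56 relations (the 21 pairs of the genes and each gene with Mafa, in the 6 animals of each Het group), 0 passed adjustment and the lowest Benjamini-Hochberg adjusted p was 0.682. Before adjustment 3 had an exact permutation p under 0.05, all in Mixed Het, where the smallest possible is 0.00278. Cryba2 with Mafa had Pearson r = 0.89 (exact p = 0.0306) and Spearman rho = 0.49 (exact p = 0.356), and Angptl7 with Nrcam had r = 0.80 (exact p = 0.0486) and rho = 0.49 (exact p = 0.356). Cryba2 with Arhgap36 had Pearson r = 0.92 (exact p = 0.0347) and Spearman rho = 0.71 (exact p = 0.136) in Mixed Het. Without the 2 animals farthest from the median of the first gene, r was -0.66, -0.54 and -0.031 in the order given, so each relation rests on those animals; leaving them out also narrows the range of that gene. Among the 21 pairs of members, r was above 0 in 14 in C57 Het (median 0.10) and in 7 in Mixed Het (median -0.18). With 6 animals per group, modest relations were not detectable.

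Genes related to the 7 by family or known partnership were then examined, from lists of 121 genes of which 86 passed the filter. Of these, 30 rose and 12 fell in C57 by limma, 48.8% in all against 38% of all genes tested, and in Mixed 35 rose and 9 fell, 51.2% against 44.1%. Over all genes 26.4% rose and 11.6% fell in C57, and 30.7% rose and 13.5% fell in Mixed. With the summed alpha-cell markers as a covariate, 7 of the list genes were called in C57 and 6 in Mixed, while the calls over all genes went from 6362 to 621 and from 7395 to 378. With the mesenchymal sum 21 were called in Mixed, and 3958 of all genes. Of the genes named in the following, Rasl10b, Rasd2 and Dcx kept their calls in both backgrounds with the alpha covariate, as did Cntnap2 in C57 and Rasd1 and Ank1 in Mixed, and the others lost theirs. The alpha sum did not overlap between WT and Het in either background, so it cannot be cleanly told apart from genotype. With it, the SE of Cryba2 in Mixed went from 0.21 to 0.48. A lost call in this fit can reflect lost precision alone. Rises and falls were closer in number under other scalings: after median-of-ratios scaling 22 rose and 14 fell in C57, and 22 rose and 13 fell in Mixed. The median log2 difference of the list was 0.071 in C57 and 0.24 in Mixed as deposited, and -0.012 and 0.11 after that scaling, while the median over all genes moved from 0.083 to 0.0052 and from 0.10 to -0.010. Between WT islets of the backgrounds 4 list genes were higher and 3 lower in Mixed, 8.14% against 11.3% of all genes. The genotype difference itself differed between the backgrounds in 7 of 86 (8.14%), near the 7.36% of all genes. With the summed mesenchymal markers as a covariate it did in 0 of 86 (25 of all genes in place of 1233). The mesenchymal sum had a median of 141 TPM in Mixed Het, and of 46.1, 50.9 and 48.6 TPM in C57 WT, C57 Het and Mixed WT. As a covariate it therefore cannot be cleanly told apart from the difference between the backgrounds. In that fit the SE of this difference for Cryba2 went from 0.29 to 0.35, so lost calls can reflect lost precision alone.

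Among Ras-like small GTPases, the relatives of Rerg, 12 of 29 rose and 3 fell in C57, and 14 rose and 2 fell in Mixed. Rasl10b rose from 1.24 ± 0.08 to 12.3 ± 2.89 TPM in C57 and from 1.43 ± 0.28 to 13.4 ± 2.45 TPM in Mixed (SD, n = 5 and 6), by 2.54 (SE 0.15) and 2.56 (SE 0.15) on the log2 scale. Rasd2 rose by 1.68 (SE 0.23, adjusted p = 1.35e-05) and 2.61 (SE 0.23, adjusted p = 1.94e-08), and Rasd1 fell in Mixed, with a log2 difference of -1.24 (adjusted p = 1.12e-04). Of 5 measured relatives of Cryba2, 2 rose and 2 fell in C57, and 1 rose and 2 fell in Mixed. Crybb1, another beta-crystallin, fell in each, from 3.92 ± 1.57 to 1.17 ± 0.31 TPM in C57 and from 5.01 ± 0.99 to 2.33 ± 0.75 TPM in Mixed. Crybb3 fell in Mixed with a log2 difference of -1.04 (adjusted p = 0.0134), and Crybg3 rose in C57 by 0.94 (adjusted p = 9.49e-05).

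Of 16 adhesion, contactin and ankyrin genes around Nrcam, 4 rose and 1 fell in C57, and 6 rose and 1 fell in Mixed. Cntnap2, a contactin-associated neurexin relative, fell from 8.65 ± 1.53 to 1.14 ± 0.25 TPM in C57 and from 7.84 ± 2.59 to 1.45 ± 0.6 TPM in Mixed, with log2 differences of -2.16 (SE 0.19, adjusted p = 3.39e-08) and -1.83 (SE 0.19, adjusted p = 1.34e-07). Ank1, an ankyrin that links membrane proteins to spectrin, rose by 0.53 (adjusted p = 0.0036) and 1.32 (adjusted p = 1.17e-07). Of 10 measured genes around DISC1, 6 rose and 1 fell in C57, and 5 rose and 1 fell in Mixed. Dcx, the microtubule-binding doublecortin of migrating neurons, rose from 3.80 ± 0.8 to 12.6 ± 2.2 TPM in C57 and from 8.51 ± 0.53 to 18.6 ± 2.8 TPM in Mixed, by 1.5 (SE 0.12) and 1.03 (SE 0.12). Like the Ccdc141 set it was higher in Mixed WT than in C57 WT (log2 difference 1.0, SE 0.13, adjusted p = 3.58e-05), and it was also among the 3 genes most like Arhgap36 over the animals (r = 0.94). Myh10, a non-muscle myosin, rose by 0.97 and 0.86.

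Of 17 genes of the hedgehog and protein kinase A route of Arhgap36, 5 rose and 2 fell in C57, and 7 rose and 3 fell in Mixed. Prkar2b, a regulatory subunit of protein kinase A, fell in each, with log2 differences of -0.35 in C57 (adjusted p = 0.0305) and -0.74 (adjusted p = 6.16e-05) in Mixed. Gli1, Gli2 and Gli3, the transcription factors of the route, did not pass the filter, with group means of at most 0.814 TPM. Of 5 angiopoietin-related genes measured, 0 rose and 2 fell in C57, and 1 rose and 0 fell in Mixed. Angptl2 rose in Mixed by 0.71 (adjusted p = 0.00429), a difference that was -0.089 with the mesenchymal sum as a covariate, and Angpt2 and Tie1 fell in C57, with log2 differences of -0.40 (adjusted p = 0.0178) and -0.48 (adjusted p = 0.0427). The summed endothelial markers (6 of 6 above 0) ranged from 403 to 907 TPM in C57 WT (median 479) and from 329 to 418 in C57 Het (median 371), and from 406 to 504 and 346 to 627 TPM in Mixed WT and Het; their part in the values of Angpt2 and Tie1, which are known from blood vessels, was not tested. Of 4 death-associated protein genes, 1 rose and 1 fell in C57, and 1 rose in Mixed. Dap rose in each, by 0.46 (adjusted p = 2.82e-04) and 0.36 (adjusted p = 0.00157).

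**Figure D4:**
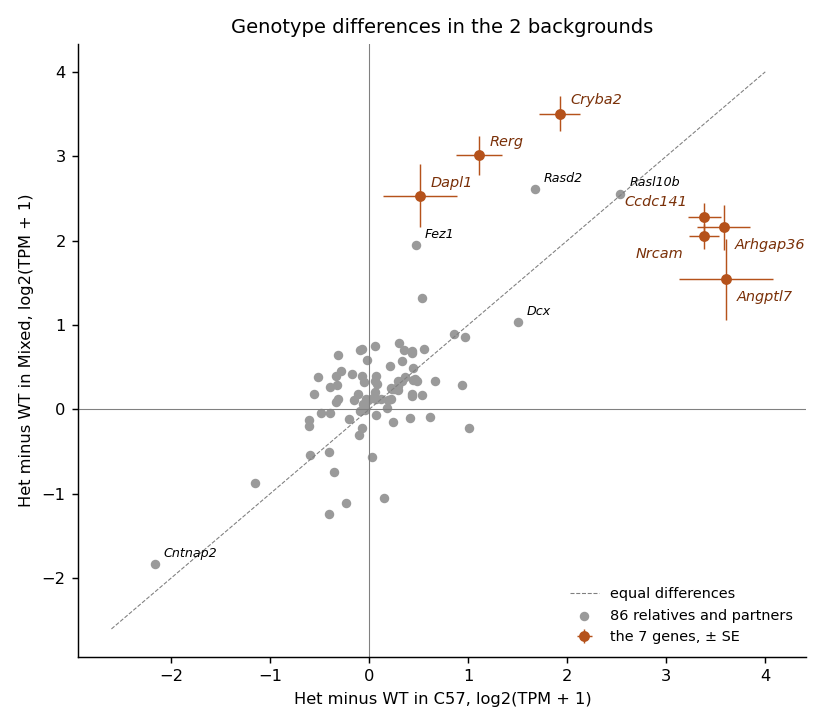
Het minus WT in C57 (x axis) against Het minus WT in Mixed (y axis) on the log2(TPM + 1) scale for the 7 genes (with standard errors) and the 86 relatives and partners, with a dashed line where both are equal. Angptl7, Arhgap36, Ccdc141 and Nrcam lie below the line, Cryba2, Rerg and Dapl1 above it, and Rasl10b (2.54 and 2.56) on it.

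Marker sums of further cell types are given by their ranges, without a test. The ductal and delta sums in C57 and the immune and beta sums in Mixed did not overlap between WT and Het. The other sums given in this paragraph overlapped. The summed ductal markers (6 of 6 above 0) ranged from 155 to 180 TPM in C57 WT, 197 to 309 in C57 Het, 138 to 209 in Mixed WT and 191 to 562 in Mixed Het. The immune sum (6 of 6) ranged from 112 to 178, 111 to 147, 109 to 157 and 162 to 333 TPM in the same order. The delta sum (4 of 4) ranged from 5539 to 8889, 10010 to 13920, 7647 to 15970 and 14670 to 32010 TPM, and the acinar sum (8 of 8) from 204 to 383, 246 to 1617, 169 to 849 and 598 to 1153 TPM. The Schwann-cell sum (6 of 6) ranged between 11.1 and 25.9, 11.1 and 17.8, 13.03 and 26.4, and 20.8 and 34.4 TPM. The beta-cell sum (8 of 8) ranged from 368800 to 448700, 321800 to 376100, 399000 to 476000 and 247900 to 339800 TPM. The sum for pancreatic polypeptide cells (2 of 2) ranged from 16900 to 26170, 19550 to 39660, 14240 to 32630 and 18320 to 60680 TPM. No defining marker of these lists was at 0 in any library. With the acinar sum as a covariate the C57 difference of Angptl7 was 3.02 in place of 3.60; the part of the other cell types in the remaining differences was not tested.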

How the data were processed

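Polyadenylated RNA of islets from 22 mice was sequenced, 1 animal per library. The authors deposited TPM (transcript abundance scaled to one common total per library) for 57010 gene IDs in 22 columns, each matched to a sample by its library number. STAR 2.7.10b, MultiQC 1.7 and mm39 are named per the submitters' processing notes; the quantifier, annotation and strand setting are not given in the sources used here. TPM keeps no read counts, so depth is unknown and no counting interval is given. Where a symbol repeated, the entry with the highest mean was used.

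Tests used log2(TPM + 1), a scale that understates changes of low genes, and genes with at least 1 TPM in at least 5 libraries. limma 3.58.1 (R 4.3.3; lmFit, eBayes with trend) fitted 4 group means over all libraries, with Benjamini-Hochberg adjustment over all genes tested and a threshold of 0.05; every adjusted p-value of a gene is from this fit. It was tested on simulated data. Differences of the members between groups carry no p-value and their limma calls are not given, as the same animals entered their choice. Exact permutation tests were two-sided (scipy 1.17.1). The members, lists, named genes and tests were chosen with earlier results of these data known. Genes named beyond the members were Mafa, Meltf, up to 3 called genes per list with the largest difference, those nearest in pattern, and genomic neighbours by GENCODE M21. Gli1, Gli2, Gli3 and the promoter-motif genes were chosen after their values were seen. The alternatives are listed in the closing section.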

Additional observations from a re-analysis of the deposited data

Results flagged for a closer look

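The 28 sets of member values (7 genes in 4 groups) were checked in TPM for an animal far from the others. In 1 set, the gap of an animal to its nearest neighbour was a large share of the group's range. Arhgap36 was at 4.10 TPM in C57 WT replicate 5, against 6.64 to 7.57 TPM in the other 4. Replicate 5 was the library with the lowest mean correlation with its group (0.958). Angptl7 in Mixed WT was not flagged, with replicate 4 at 4.92 TPM and the others from 33.0 to 57.1 TPM. On the log2 scale, not used for this check, a gap above the lowest animal is a larger share of the range. Chance alone flags about 1 in 20 such groups.

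Of the 86 relatives and partners tested, 7 (8.14%) had a genotype difference that depended on background by limma, against 7.36% of all genes. With the summed mesenchymal markers as a covariate 0 did. That sum was highest by median in Mixed Het, so it cannot be cleanly told apart from a difference between the backgrounds. The difference between the backgrounds (Mixed minus C57, log2) was 1.47 (SE 0.29, adjusted p = 0.00576) for Fez1, a kinesin adaptor, which was at 6.38 TPM ± 0.86 (SD, n = 5) in C57 WT and 1.61 ± 0.39 (n = 5) in Mixed WT but at 9.22 ± 0.7 and 9.59 ± 3.22 (n = 6) in the Het groups. It was 0.61 (adjusted p = 0.00409) for the Ras gene Hras and 0.89 (adjusted p = 0.0169) for Rasl12, both named after their values were seen. It was -1.23 (adjusted p = 0.0237) for the contactin gene Cntn3, 0.79 (adjusted p = 0.0163) for Ank1, 0.70 (adjusted p = 0.0232) for the hedgehog receptor component Smo and 0.42 (adjusted p = 0.0451) for Dap3. Under the alternatives the highest adjusted p by limma was 0.536 for Smo, 0.518 for Dap3, 0.505 for Rasl12 and 0.4365 for Ank1. It was 0.32 for Cntn3, 0.253 for Fez1 and 0.161 for Hras. The Smo value in C57 and the Dap3 value in Mixed, neither of which passed, changed sign under median-of-ratios scaling.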

How the results depend on the processing

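The alternatives were a pseudocount of 0.1, no filter, median-of-ratios scaling, quantile normalization, the samples of a contrast alone, the summed alpha, acinar or mesenchymal markers as a covariate, and leaving out each of the 22 animals in turn. Of 420 values so obtained for the 14 Het minus WT differences of the members, 238 differed from the main value and 9 moved by over 1 SD of the replicates; that all were positive follows largely from how the genes were chosen. Between the WT groups, 1892 of all 16756 genes were called in the main fit and 831 with the WT samples alone. The WT animals entered the choice of the members, so calls of members are not counted. The Angptl7 difference between WT groups rose to 3.56 without Mixed WT replicate 4. With a pseudocount of 0.1 that of Ccdc141 was 1.51. The alpha sum did not overlap between WT and Het in either background, so as a covariate it cannot be cleanly told apart from genotype. For the relatives and partners, the calls numbered 7 in C57 and 6 in Mixed with the alpha markers as a covariate, and 21 in Mixed with the mesenchymal markers, while calls over all 16756 genes fell too, from 6362 to 621, from 7395 to 378 and from 7395 to 3958, and the cause was not tested. Between the WT groups they numbered 4 with no filter, 4 with the samples of the contrast alone, 4 with the alpha covariate and 11 with quantile normalization, and from 4 (without C57 WT replicate 1 or Mixed WT replicate 1) to 11 (without Mixed WT replicate 5) when 1 animal was left out. For the difference between the backgrounds they numbered 7 as reported, 11 with median-of-ratios scaling, 11 with quantile normalization and 0 with the mesenchymal covariate. Without 1 animal they numbered from 6 to 16, with 12 without Mixed WT replicate 5 and 16 without Mixed Het replicate 3. The mesenchymal sum was highest by median in Mixed Het, so as a covariate it cannot be cleanly told apart from that difference. Single values that changed sign were Angptl2 in C57 (-0.16 to 0.023 without 1 animal, above 0 without C57 WT replicate 5) and in Mixed (-0.089, mesenchymal covariate), Gas1 in Mixed (-0.35, mesenchymal covariate), Tie1 in Mixed (0.54 with the alpha covariate, -0.085 to 0.028 without 1 animal, above 0 without Mixed WT replicate 2 or Mixed Het replicate 3), Angpt2 in Mixed (-0.10 to 0.064 without 1 animal, above 0 without Mixed Het replicate 4), Smo in C57 (-0.0007, median-of-ratios) and Dap3 in Mixed (-0.045 with median-of-ratios, -0.014 with quantile normalization, -0.033 with the mesenchymal covariate). Without 1 animal the calls between Het and WT numbered 31 to 43 in C57 and 39 to 47 in Mixed. No paired analysis was possible because the labels give no replicate numbers that animals of different groups share. Unknown depth limits what can be said of values under 1 TPM.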

Other observations

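The 11-base MARE core found before Cryba2 was present in 15 promoters, whose genes were looked up after the motif had been seen, as a description without a test. Apart from Cryba2, in which the motif was seen, 4 of these genes passed the filter in islets. By limma 2 of the 4 rose in C57 and 3 of the 4 in Mixed, where 26.4% and 30.7% of all genes tested rose. With 4 genes, nothing is read from this comparison. Xpot, a transfer RNA exporter, rose by 0.71 (adjusted p = 9.60e-05) in C57 and 0.35 (adjusted p = 0.0193) in Mixed. Tmem37 rose by 0.96 (adjusted p = 0.00559) and 1.06 (adjusted p = 0.00215), and the bleomycin hydrolase gene Blmh rose in Mixed by 0.16 (adjusted p = 0.0275). Arap2 differed by 0.13 (adjusted p = 0.384) and 0.17 (adjusted p = 0.232). Lenep and Arhgap40, which also held the core, had group means of at most 0.0245 and 0.0651 TPM.

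Wdr72, among the 3 genes most like Dapl1 over the 22 animals (Pearson r = 0.86), was at mean levels of 0.0349 TPM in C57 WT, 0.741 in C57 Het, 0.0282 in Mixed WT and 5.82 in Mixed Het.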
